A study of Mus musculus with 12 samples.

Results

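The 10 genes described here, Dazl, Ddx4, Mael, Sycp3, Taf7l, Stk31, Tdrd1, Hormad1, Slc25a31 and Tex101, are germline genes, whose products serve germ cells and the testis. They were taken by symbol from the deposited table of raw read counts, where all 10 were found among 24421 gene rows. A filter on low counts left 15281 genes for testing, and 9 of the 10 passed it. Tex101 did not pass and is described by its counts.

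RNA was measured in 12 samples of E14 cells, a line of mouse embryonic stem cells, in 4 groups of 3. KO paused cells carried a knockout of Mettl3, the catalytic subunit of the writer of N6-methyladenosine on RNA, and were kept for 2 weeks on INK128, an inhibitor of the kinase mTOR, at 200 nM, a treatment used to bring stem cells into a paused state like that of embryonic diapause. KO FBS cells carried the same knockout and grew for 2 weeks in the control medium with serum and LIF, on gelatin as did all groups. WT paused cells had no knockout and received INK128 at 200 nM for 2 weeks, and WT FBS cells had neither. The labels do not give the edited part of Mettl3, the number of clones, or whether replicates were separate cultures, so p-values measure the spread between these samples, which may be technical.

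In mammals many germline genes have CpG-rich promoters that become methylated on DNA as the embryo implants, and they stay silent in somatic cells through that mark. In embryonic stem cells a further layer of repression comes from the Polycomb complex PRC1.6, whose DNA-binding subunits include MGA with MAX, which recognise the E-box, and E2F6 with its partner. Loss of either layer is known to raise transcripts of genes such as Ddx4, Dazl and Mael in stem cells. No DNA methylation was measured here, so the sensitivity to methylation that unites these genes is background and was not checked.

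The genes fall into a few roles. Mael (Maelstrom), Tdrd1, a tudor protein that binds PIWI proteins, and Ddx4, the mouse Vasa helicase, act in the piRNA pathway that silences transposons in germ cells. Stk31 is a tudor-domain protein with a kinase-like region found in male germ cells, and Dazl is an RNA-binding protein that controls translation in germ cells. Hormad1 and Sycp3 are proteins of the meiotic chromosome axis. Taf7l is a germ cell paralogue of a subunit of the general transcription factor TFIID, Slc25a31 is the testis form of the mitochondrial carrier of ADP and ATP, and Tex101 is a surface glycoprotein of male germ cells.

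All 10 are protein-coding genes on the mouse build GRCm38 (mm10). Mael lies on chromosome 1 (166201201 to 166238747, minus strand), Tdrd1 on chromosome 19 (56826209 to 56870012, plus strand), Ddx4 on chromosome 13 (112598333 to 112652475, minus strand), Stk31 on chromosome 6 (49395604 to 49469501, plus strand) and Dazl on chromosome 17 (50279395 to 50293636, minus strand). Hormad1 lies on chromosome 3 (95559677 to 95587671, plus strand), Sycp3 on chromosome 10 (88459569 to 88473236, plus strand), Taf7l on the X chromosome (134460118 to 134476490, minus strand), Slc25a31 on chromosome 3 (40708855 to 40726096, plus strand) and Tex101 on chromosome 7 (24668007 to 24676675, minus strand). Of the 1264 bp of Sycp3 exons, 660 overlap exons of Chpt1 on the opposite strand. Whether the counting used strand is not stated in the labels, and values of Sycp3 are uncertain for that reason.

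The promoters of 4 of these genes are shown because their transcripts went different ways under the same treatment when each is set against the typical gene of its library: Mael and Stk31 fell most in paused KO cells, Ddx4 fell in paused KO and rose in paused WT cells, and Tdrd1 was the member that rose in paused KO cells. Per cell, Ddx4 fell in both genotypes, though the WT call was lost under several settings, and Tdrd1 was not called, as given below. Each window runs from 250 bases before to 50 bases after the start listed by RefSeq (GRCm38.p6), is written 5′ to 3′ on the strand of the gene, and has in capitals the E-box CACGTG, which reads the same on both strands, and the E2F-type hexamer GCGGGA in either orientation. The windows are chr1:166238695-166238994 (minus strand) for Mael, chr6:49395289-49395588 (plus strand, the first of 2 listed) for Stk31, chr13:112652261-112652560 (minus strand) for Ddx4 and chr19:56825959-56826258 (plus strand, the first of 3 listed) for Tdrd1.
Mael: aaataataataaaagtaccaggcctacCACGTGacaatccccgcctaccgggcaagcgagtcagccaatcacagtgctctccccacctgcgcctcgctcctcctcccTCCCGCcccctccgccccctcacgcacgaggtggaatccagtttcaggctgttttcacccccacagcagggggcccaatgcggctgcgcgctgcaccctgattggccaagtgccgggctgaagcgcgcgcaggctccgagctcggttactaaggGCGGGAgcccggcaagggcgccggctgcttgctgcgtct
Stk31: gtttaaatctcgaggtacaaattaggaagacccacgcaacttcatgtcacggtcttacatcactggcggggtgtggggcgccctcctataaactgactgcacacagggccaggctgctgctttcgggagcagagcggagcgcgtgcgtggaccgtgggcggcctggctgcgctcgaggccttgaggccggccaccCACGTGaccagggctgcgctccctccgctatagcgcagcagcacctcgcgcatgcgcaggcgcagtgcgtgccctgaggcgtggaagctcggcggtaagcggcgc
Ddx4: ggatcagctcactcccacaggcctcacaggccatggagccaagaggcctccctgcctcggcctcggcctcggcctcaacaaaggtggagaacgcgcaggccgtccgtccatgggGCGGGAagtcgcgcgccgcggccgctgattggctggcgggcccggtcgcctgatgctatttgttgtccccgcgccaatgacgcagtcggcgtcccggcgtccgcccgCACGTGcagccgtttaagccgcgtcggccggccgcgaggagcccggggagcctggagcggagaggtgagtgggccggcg
Tdrd1: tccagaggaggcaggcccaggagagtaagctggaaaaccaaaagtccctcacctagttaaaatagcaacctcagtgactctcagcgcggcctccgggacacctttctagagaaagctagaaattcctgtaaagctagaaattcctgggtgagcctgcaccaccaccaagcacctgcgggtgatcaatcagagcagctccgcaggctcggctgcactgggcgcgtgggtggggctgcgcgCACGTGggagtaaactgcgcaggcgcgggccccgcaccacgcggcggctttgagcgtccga

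An E-box was found in the windows of 8 of the 10 genes, all but Dazl and Tex101, whereas 7.24% of 27025 RefSeq promoters of the same length and 10.1% of the 11379 promoters matched to tested genes held it. The E2F-type hexamer, searched on both strands and not overlapping the E-box, was found in 5 of the 10, in Mael, Ddx4, Sycp3, Hormad1 and Slc25a31, against 20.0% of all promoters and 35.2% of those of tested genes. The first base of the E-box lay 11 bp before the start in Tdrd1, 29 bp in Ddx4, 55 bp in Stk31, 49 bp in Taf7l, 93 bp in Slc25a31 and 223 bp in Mael, and Sycp3 and Hormad1 had 2 each, at 64 and 43 bp and at 57 and 20 bp. The windows held between 15 CpG in Sycp3 and 38 in Ddx4, with a median of 23, against a median of 7 over all promoters and 20 over promoters of tested genes. These matches describe letters in the windows and no binding was measured. The Tex101 window, chr7:24672001-24672300, lies inside the gene span given above, which on the minus strand begins at 24676675. Sequence at that end of the span was not searched.

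**Figure D1:**
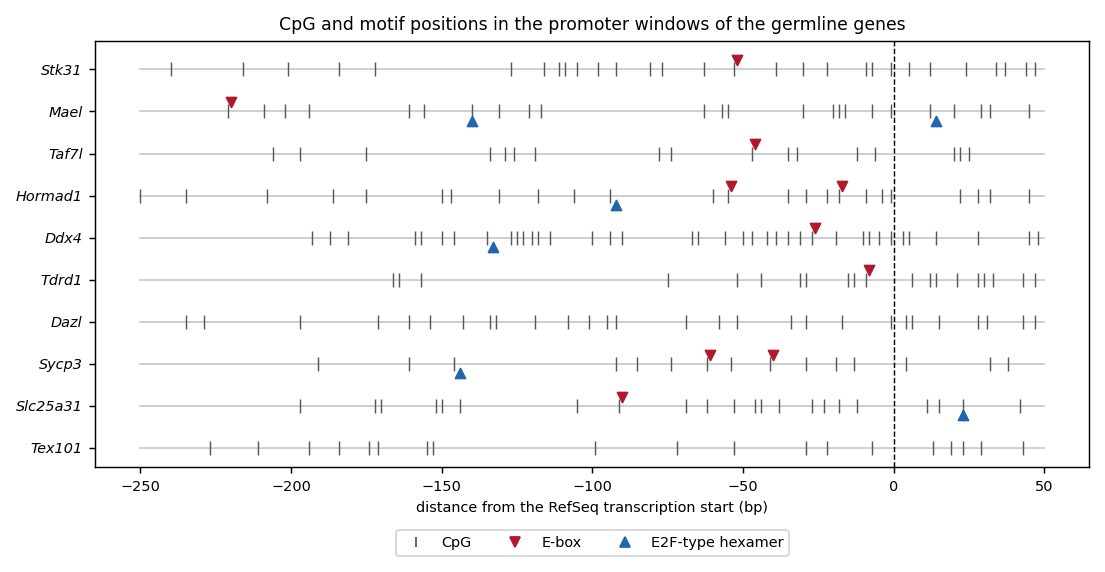
Map of the promoter windows of the 10 germline genes by distance in bp from the RefSeq start (dashed line). Grey ticks are CpG dinucleotides, red triangles the E-box and blue triangles the E2F-type hexamer, each at its centre. The E-box is drawn in 8 windows and is missing from those of Dazl and Tex101. The Tex101 window lies inside the gene span given in the text.

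The libraries held 10615548 to 39566713 counts, and levels are given as CPM, counts scaled to the TMM-adjusted size of the library, where 1 CPM was worth 10.3 to 35.1 counts. Mettl3, the targeted gene, stood in KO libraries at 28.8, 31.4 and 30.01 CPM when paused and 25.5, 27.5 and 28.6 CPM in FBS medium, against 35.1, 39.1 and 33.6 CPM when paused and 31.2, 37.4 and 33.0 CPM in FBS medium in WT libraries. Its transcript was thus present in every KO library at lower levels than in WT libraries of the same condition, and counts over the whole gene are a weak check of the genotype. All 10 pluripotency genes on the list used here passed the filter, and their summed level in KO libraries was 3183 to 3470 CPM when paused and 2557 to 3006 CPM in FBS medium, against 5577 to 6032 CPM when paused and 4153 to 5494 CPM in FBS medium in WT libraries. The genotypes also differed in 4 Y-linked genes, whose counts ran between 593 and 3124 in the 6 KO libraries and between 0 and 7 in the 6 WT libraries, so a difference between KO and WT cannot be told apart from other differences between the lines. WT FBS replicate 1 stood apart: 2541 genes in it were more than 2-fold from the mean of the other replicates of its group, against 72 to 644 genes in the other 11 libraries.

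Changes were measured on 2 scales. The relative scale sets each gene against the typical gene of its library, and the per-cell scale sets it against the spiked ERCC RNAs, which were added to the RNA of a fixed number of cells. For each ERCC count there were 38.3 ± 1.89 gene counts in paused and 68.5 ± 23.3 in FBS libraries of the KO, against 33.0 ± 4.19 in paused and 73.4 ± 1.15 in FBS libraries of the WT (SD, n = 3 each). A log2 fold change of about zero on the relative scale is therefore a loss per cell under pausing, since the median over all tested genes on the per-cell scale was -0.72 for KO and -1.05 for WT cells. Values below are on the relative scale unless the per-cell scale is named.

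All the germline genes but Ddx4 lay below the middle of the tested genes by level per kb. The highest share of tested genes below any of these was 42.4%, for Sycp3 in WT FBS cells. Per kb of exon, Ddx4 had a mean level of 8.22 CPM in paused and 11.96 CPM in FBS cells of the KO, above 68% and 77.7% of tested genes, and of 8.73 CPM in paused and 6.85 CPM in FBS cells of the WT, above 70.1% and 64.1%. In KO FBS cells the order by level per kb after Ddx4 was Stk31 at 2.34 CPM, Hormad1 at 1.72, Sycp3 at 1.36, Mael at 1.20, Taf7l at 0.866, Dazl at 0.817, Tdrd1 at 0.600, Tex101 at 0.268 and Slc25a31 at 0.175 CPM. In KO paused cells Stk31 stood at 0.296 and Mael at 0.118 CPM per kb, above 13.9% and 6.28% of tested genes, against 42.1% and 30.6% in KO FBS cells. Such levels in a bulk sample could come from a few cells or from little RNA in many, and fewer expressing cells and less RNA per cell cannot be told apart.

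**Figure D2:**
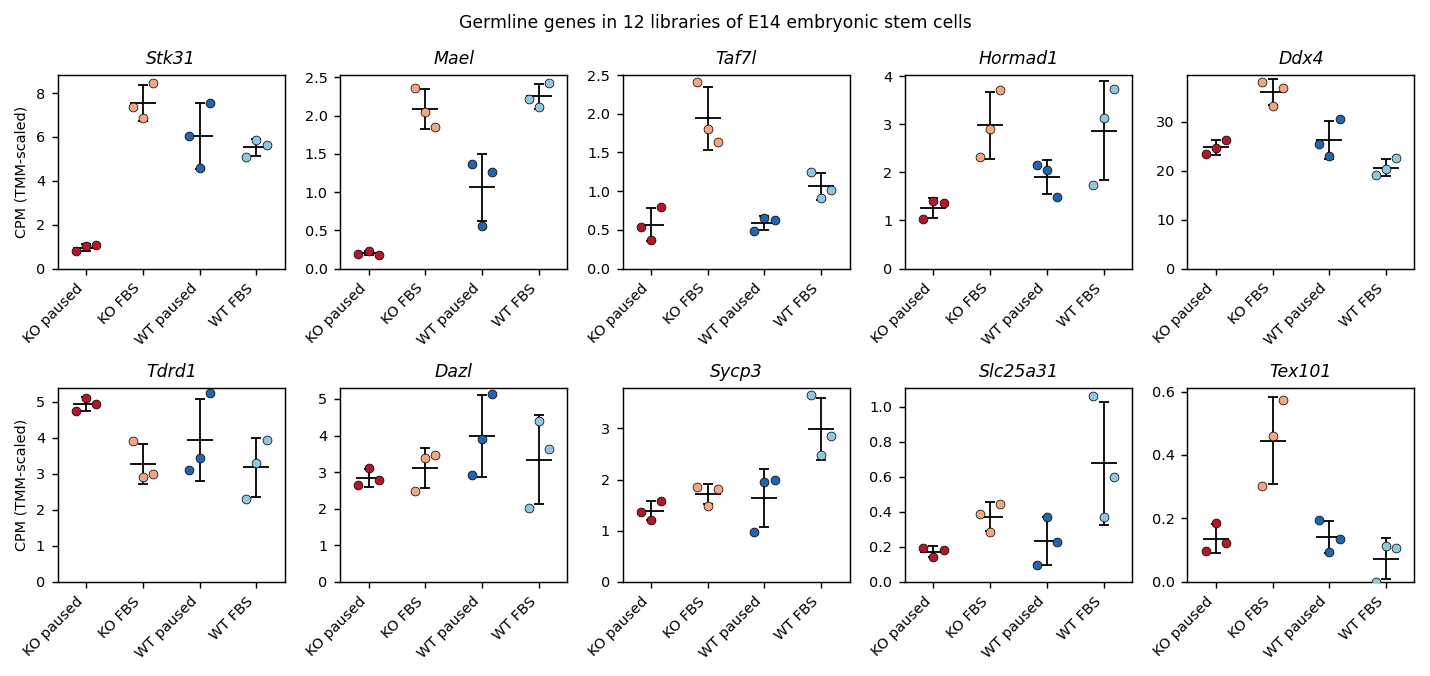
Level of each germline gene in CPM (TMM-scaled, linear axes from 0, one panel per gene) in the 3 libraries of KO paused, KO FBS, WT paused and WT FBS cells. Points are libraries, and horizontal lines with bars are the mean and SD. Stk31 and Mael lie near the axis in KO paused cells, below every library of the other 3 groups.

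Pausing of KO cells lowered 5 of the 9 tested germline genes and raised 1. The background was high: 19.4% of all tested genes were called lower and 23.3% higher in this comparison. Mael, Stk31, Taf7l, Hormad1 and Ddx4 fell, Tdrd1 rose, and Dazl, Sycp3 and Slc25a31 were not called. The median log2 fold change of the 9 genes was -1.08, beside 0.03 over all tested genes.

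Among the genes of the piRNA pathway and the germ granule, Mael had 0.196, 0.233 and 0.183 CPM in KO paused cells, against 2.36, 2.05 and 1.85 CPM in KO FBS cells. The groups did not overlap, and the KO paused level rested on 4, 5 and 6 counts. The log2 fold change was -3.33 ± 0.30 (SE), a 10.1-fold fall, with an adjusted p of 4.7e-06 by edgeR's quasi-likelihood test with Benjamini-Hochberg adjustment, which stands behind all adjusted p-values given here. Stk31 had 0.783, 1.02 and 1.07 CPM in KO paused cells, against 7.38, 6.85 and 8.46 CPM in KO FBS cells. Its KO paused level rested on 16, 22 and 35 counts. No library of either group came near the other, and the log2 fold change was -2.96 ± 0.21 (adjusted p = 7.19e-07 by edgeR), a 7.78-fold fall. Ddx4 had 23.4, 24.6 and 26.3 CPM in KO paused cells, against 38.1, 33.1 and 36.9 CPM in KO FBS cells. These groups did not overlap either, and the fall was smaller, at -0.54 ± 0.11 on the log2 scale (adjusted p = 0.00241 by edgeR).

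Tdrd1 went the other way, with 4.75, 5.12 and 4.94 CPM in KO paused cells, against 3.91, 2.90 and 3.001 CPM in KO FBS cells. All KO paused libraries were above all KO FBS libraries, and the log2 fold change was 0.60 ± 0.22 (adjusted p = 0.0412 by edgeR). That call was lost on leaving out any KO paused replicate or KO FBS replicate 2 or 3, with adjusted p-values of 0.0776 to 0.138 and log2 fold changes of 0.52 to 0.62. With all libraries but median-of-ratios scaling it was lost too, at 0.56 (adjusted p = 0.0556 by edgeR). Dazl had 2.64, 3.12 and 2.77 CPM in KO paused cells, against 2.49, 3.39 and 3.48 CPM in KO FBS cells, so the groups overlapped (log2 fold change -0.14, 95% interval -0.70 to 0.42).

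The meiotic axis genes differed from each other. Hormad1 had 1.03, 1.40 and 1.37 CPM in KO paused cells, against 2.32, 2.90 and 3.70 CPM in KO FBS cells, with no overlap, and fell by 1.23 ± 0.27 on the log2 scale (adjusted p = 0.00333 by edgeR). Sycp3 had 1.37, 1.21 and 1.58 CPM in KO paused cells, against 1.85, 1.48 and 1.82 CPM in KO FBS cells. Its groups overlapped, and the log2 fold change was -0.29 with a 95% interval of -0.82 to 0.24.

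Taf7l had 0.539, 0.372 and 0.792 CPM in KO paused cells, against 2.40, 1.80 and 1.63 CPM in KO FBS cells. The groups were apart and the fall was 3.26-fold, with a log2 fold change of -1.71 ± 0.27 (adjusted p = 0.000327 by edgeR). Slc25a31 had 0.196, 0.140 and 0.183 CPM in KO paused cells, against 0.386, 0.283 and 0.447 CPM in KO FBS cells, groups that did not overlap but rested on 13 and 31 counts in all, and its log2 fold change of -1.08 ± 0.48 was not called (adjusted p = 0.0869 by edgeR). Tex101 had 2, 4 and 4 counts in KO paused and 7, 13 and 18 counts in KO FBS libraries, a ratio of scaled counts of 0.292 with a 95% interval of 0.130 to 0.597. This interval and others like it cover counting error only.

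Markers of other cell types moved with the same comparison, where 19.4% of all tested genes were called lower and 23.3% higher. All 9 tested genes of the trophoblast list, which holds 11 markers, were called lower in KO paused than in KO FBS cells, and the summed level of the list was 24.1 to 26.7 CPM in KO paused and 141 to 202 CPM in KO FBS libraries. None of the 11 was at 0 in all libraries of either group. Of the 5 tested genes of the fibroblast list, which holds 9 markers, 4 were called lower and 1 higher, while its summed level was 55.0 to 59.2 CPM in KO paused and 38.1 to 41.6 CPM in KO FBS libraries. Of the 11 genes of the extraembryonic endoderm list, 5 were called lower and 1 higher, with sums of 265 to 269.7 CPM in KO paused and 227 to 234 CPM in KO FBS libraries. Their part in the fall of the germline genes was not tested.

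Pausing of WT cells raised 1 of the 9 germline genes and lowered 2, where 18% of all tested genes were called higher and 20.2% lower, and the median of the 9 was -0.70 beside -0.02 over all tested genes. Mael had 1.36, 0.559 and 1.26 CPM in WT paused cells, against 2.22, 2.11 and 2.42 CPM in WT FBS cells. The groups were apart, and Mael fell 2.06-fold, with a log2 fold change of -1.04 ± 0.26 (adjusted p = 0.00769 by edgeR). Stk31 had 6.04, 4.56 and 7.54 CPM in WT paused cells, against 5.10, 5.87 and 5.62 CPM in WT FBS cells. The WT paused libraries lay on both sides of the WT FBS libraries, and the log2 fold change was 0.14 with a 95% interval of -0.25 to 0.54.

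Ddx4 had 25.4, 23.0 and 30.5 CPM in WT paused cells, against 19.07, 20.2 and 22.6 CPM in WT FBS cells. The groups were apart by a small margin, and Ddx4 rose by 0.35 ± 0.12 on the log2 scale (adjusted p = 0.0332 by edgeR). The call was lost without WT paused replicate 1 (0.38, adjusted p = 0.0585), WT paused replicate 3 (0.21, adjusted p = 0.199) or WT FBS replicate 2 (0.34, adjusted p = 0.09). Tdrd1 had 3.12, 3.44 and 5.24 CPM in WT paused cells, against 2.31, 3.31 and 3.94 CPM in WT FBS cells, and Dazl had 2.92, 3.91 and 5.15 CPM in WT paused cells, against 2.02, 4.39 and 3.62 CPM in WT FBS cells. Both genes overlapped between the groups and were not called, with log2 fold changes of 0.30 ± 0.23 for Tdrd1 and 0.23 ± 0.26 for Dazl.

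Sycp3 had 0.974, 1.96 and 1.99 CPM in WT paused cells, against 3.66, 2.48 and 2.85 CPM in WT FBS cells. It fell by 0.78 ± 0.25 on the log2 scale (adjusted p = 0.0289 by edgeR) with no overlap, and the call was lost without WT paused replicate 1 (-0.56, adjusted p = 0.0928) or WT FBS replicate 3 (-0.80, adjusted p = 0.0634). Chpt1, whose exons overlap it, was not called under pausing in WT cells (-0.07 ± 0.19). Hormad1 had 2.14, 2.05 and 1.49 CPM in WT paused cells, against 1.73, 3.14 and 3.72 CPM in WT FBS cells, where the low value is that of WT FBS replicate 1. Its log2 fold change of -0.70 ± 0.29 was not called (adjusted p = 0.0726 by edgeR) but was called without that library, at -0.92 (adjusted p = 0.00237).

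Taf7l had 0.487, 0.652 and 0.632 CPM in WT paused cells, against 1.25, 0.912 and 1.02 CPM in WT FBS cells, and its log2 fold change of -0.77 ± 0.33 was not called (adjusted p = 0.0839 by edgeR) although the groups did not overlap. Slc25a31 had 1, 4 and 5 counts in WT paused and 11, 13 and 17 counts in WT FBS libraries, a ratio of scaled counts of 0.418 (95% interval 0.187 to 0.848). Tex101 had 2, 1 and 3 counts in WT paused and 0, 4 and 3 counts in WT FBS libraries, too few to give a direction (ratio 1.47, 95% interval 0.408 to 5.10). In this comparison the trophoblast list summed to 12.2 to 14.02 CPM in WT paused and 21.3 to 25.6 CPM in WT FBS libraries, with 4 of its 9 tested genes called lower and 1 higher, and all 11 genes of the extraembryonic endoderm list were called lower. Of the 5 tested fibroblast genes 4 were called lower and 1 higher, beside 20.2% and 18% of all tested genes. Their part in these results was not tested.

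**Figure D3:**
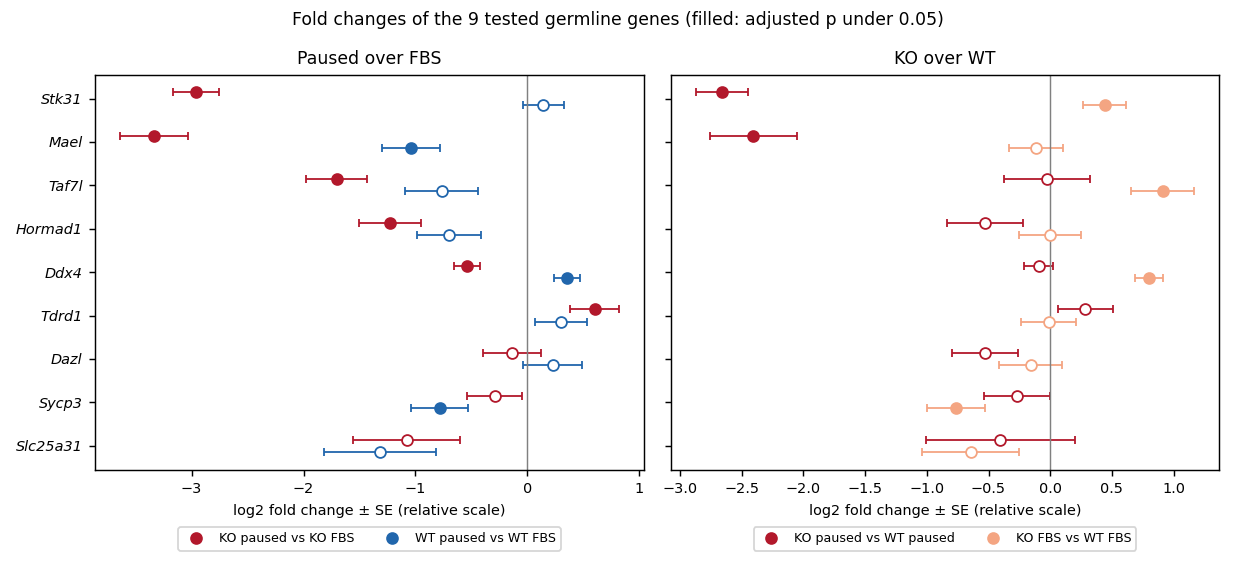
Log2 fold change ± SE of the 9 tested germline genes on the relative scale, for paused over FBS cells (left) and for KO over WT cells (right). Filled points had an adjusted p under 0.05 and open points did not, and the point of Slc25a31 in WT paused over WT FBS and in KO paused over WT paused cells rests on 10 counts in a group. Stk31 and Mael are the only points beyond -2, in KO paused over KO FBS and in KO paused over WT paused cells.

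Whether the pausing effect depended on genotype was tested by the KO effect minus the WT effect, in a contrast that uses the same 12 libraries as the comparisons above and is not independent of them. It was called for 3 of the 9 germline genes, all lower in KO, where 8.26% of all tested genes were called lower and 9.61% higher, and the median of the 9 was -0.53 beside 0.09 over all tested genes. Stk31 had the largest difference, at -3.10 ± 0.28 on the log2 scale (adjusted p = 2.9e-05 by edgeR): it fell under pausing in KO cells, and in WT cells the interval of its change includes 0. Mael fell under pausing in both genotypes and fell further in KO, with a difference of -2.29 ± 0.42 (adjusted p = 0.00314 by edgeR). Pausing lowered Ddx4 in KO cells and raised it in WT cells, and the difference was -0.89 ± 0.17 (adjusted p = 0.00339 by edgeR). These 3 calls held on leaving out any of the 12 libraries in turn.

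For the other 6 the difference was not called, which does not show that the genotypes responded alike. Taf7l had a difference of -0.94 with a 95% interval of -1.89 to 0.01, and Hormad1 one of -0.53 with an interval of -1.39 to 0.34. Sycp3 stood at 0.49 (-0.28 to 1.26), Tdrd1 at 0.30 (-0.39 to 0.99) and Dazl at -0.37 (-1.17 to 0.44). The interval of Slc25a31, -1.38 to 1.85, was the widest of the 9 and rests on 10 counts in WT paused cells.

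In FBS medium the knockout cells had 3 of the 9 germline genes higher than WT cells and 1 lower, with 28.4% of all tested genes called higher and 29.4% lower. The median of the 9 was -0.01, beside -0.04 over all tested genes, which lie close together. Ddx4, with the KO FBS and WT FBS levels given above, was higher in all 3 KO libraries, by 0.80 ± 0.12 on the log2 scale (adjusted p = 8.61e-05 by edgeR). Taf7l was higher by 0.91 ± 0.26 (adjusted p = 0.00864 by edgeR), again without overlap. This gene is X-linked, and the genotypes differ in Y-linked counts as stated. The 49 tested genes nearest to it had a median of -0.05, with quartiles of -0.59 and 0.75, and 39 of them lay lower than Taf7l. Knockout and line cannot be told apart here either. Stk31 was higher by 0.44 ± 0.17 (adjusted p = 0.0449 by edgeR), a call that held on leaving out only 4 of the 12 libraries and was lost, at adjusted p-values up to 0.158, without any of the other 8.

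Sycp3 was lower in KO FBS than in WT FBS cells, by a log2 fold change of -0.76 ± 0.23 (adjusted p = 0.0139 by edgeR), while the overlapping Chpt1 was higher by 0.74 ± 0.18 (adjusted p = 0.00358 by edgeR). The Sycp3 call was lost without KO FBS replicate 2 (-0.67, adjusted p = 0.0604). Mael, Dazl, Tdrd1, Hormad1 and Slc25a31 were not called. For Mael the 95% interval of the log2 fold change was -0.59 to 0.36, for Tdrd1 -0.50 to 0.47, for Hormad1 -0.54 to 0.54 and for Dazl -0.71 to 0.39, each of which includes differences in either direction. Tex101, with 38 counts over the KO FBS libraries and 7 over the WT FBS libraries, had a ratio of scaled counts of 4.84 (95% interval 2.13 to 12.8), and each KO FBS library was above each WT FBS library. Beside these results, 6 of the 9 tested trophoblast genes were called higher in KO FBS cells, and the list summed to 141 to 202 CPM in KO FBS and 21.3 to 25.6 CPM in WT FBS libraries. Hand1 and Krt7, as stated above, passed the filter only because of KO FBS libraries. Of the 5 tested fibroblast genes 4 were called higher and none lower. Of the 11 extraembryonic endoderm genes 2 were called higher and 7 lower, beside 28.4% and 29.4% of all tested genes. The part of these lists was not tested.

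In the paused state 2 of the 9 germline genes were lower in KO than in WT cells and none was higher, with 23.9% of all tested genes called lower and 27.9% higher. They were Stk31, at -2.66 ± 0.21 (adjusted p = 8.77e-07 by edgeR), a 6.32-fold difference, and Mael, at -2.41 ± 0.35 (adjusted p = 0.000108 by edgeR), a 5.31-fold difference. Every KO paused library was below every WT paused library for both. The 7 that were not called included Ddx4, whose log2 fold change of -0.09 had a 95% interval of -0.35 to 0.16, and Taf7l, at -0.03 with an interval of -0.79 to 0.74. Both genes were called higher in KO cells in FBS medium and were not called in paused cells. Dazl (-0.53 ± 0.27), Hormad1 (-0.53 ± 0.31), Sycp3 (-0.27 ± 0.27) and Tdrd1 (0.28 ± 0.22) had 95% intervals that include 0, and Slc25a31, with 13 and 10 counts, had a ratio of 0.751 (0.304 to 1.91). The median of the 9 was -0.41, beside 0.01 over all tested genes. In the same comparison 4 of the 5 tested fibroblast genes were called higher and none lower, with sums of 55.0 to 59.2 CPM in KO paused and 18.6 to 22.3 CPM in WT paused libraries, and 3 of the 9 tested trophoblast genes were called higher and 1 lower. Of the 11 extraembryonic endoderm genes 3 were called higher and 4 lower. Their part in these results was not tested.

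Per cell, nearly all of the germline genes were lower in paused cells, as were most genes. In KO cells 8 of the 9 were called lower under pausing and none higher, where 45.7% of all tested genes were called lower and 2.45% higher. In WT cells 7 of the 9 were called lower and none higher, where 68.8% were called lower and 1.15% higher. Both counts include Slc25a31, which passed the filter through FBS libraries only, the groups where it is high. In WT paused cells it had 10 counts, and its per-cell ratio of scaled counts was 0.202 (95% interval 0.0903 to 0.410). The per-cell fall of Mael was -4.05 ± 0.49 in KO (adjusted p = 8.88e-15 by edgeR) and -2.14 ± 0.42 in WT cells (adjusted p = 5.61e-06 by edgeR). That of Stk31 was -3.69 ± 0.40 in KO (adjusted p = 2.5e-18 by edgeR) and -0.92 ± 0.35 in WT cells (adjusted p = 0.016 by edgeR). The per-cell tests of the members used a spread shared among genes and not the gene's own spread between libraries. Per-cell p-values are therefore not comparable with those on the relative scale, and very small ones overstate the evidence from 3 libraries per group. The WT call for Stk31 was lost without WT paused replicate 1 or 2 or WT FBS replicate 2 or 3, at log2 fold changes of -0.76 to -0.87. In KO cells the per-cell calls of Dazl and Sycp3 were lost on leaving out any of several libraries, at -0.57 to -0.90 for Dazl and -0.86 to -1.13 for Sycp3, and that of Slc25a31 without KO FBS replicate 3, at -1.58. Tdrd1 was the KO exception, at -0.10 with a 95% interval of -0.79 to 0.59, so its rise against the typical gene was not called per cell.

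Ddx4 changed sign with the scale in WT cells. Its ERCC-scaled level, set to the overall level of the CPM, was 12.7, 18.4 and 20.3 in WT paused and 24.5, 24.8 and 33.8 in WT FBS cells, and the per-cell log2 fold change was -0.69 ± 0.33 (adjusted p = 0.0486 by edgeR), against the rise of 0.35 on the relative scale. That per-cell call held on leaving out only 3 of the 12 libraries. It was also lost without a filter on low counts (-0.69, adjusted p = 0.0627 by edgeR). With ERCC totals without a TMM factor it was lost as well (-0.70, adjusted p = 0.0538 by edgeR). In KO cells Ddx4 fell on both scales, to ERCC-scaled levels of 17.8, 22.9 and 22.6 in KO paused cells, against 36.7, 64.6 and 51.4 in KO FBS cells. The spread of the KO FBS libraries in ERCC ratio, given above, enters every per-cell value of that group.

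Of the 3 genes with a different pausing effect by genotype on the relative scale, Stk31 kept the call per cell, at -2.78 ± 0.52 (adjusted p = 2.39e-05 by edgeR), where 1.66% of all tested genes were called lower and 3.04% higher. Mael stood at -1.91 ± 0.65 (adjusted p = 0.064 by edgeR) and was called with a replicate block (-1.93, adjusted p = 0.0188) or without KO FBS replicate 1 (-2.08, adjusted p = 0.0272). Ddx4 stood at -0.57 ± 0.46 (adjusted p = 0.559 by edgeR). Between genotypes per cell, Ddx4 was the member called higher in KO FBS cells, by 0.88 ± 0.33 (adjusted p = 0.0281 by edgeR), where 19.1% of all tested genes were called higher and 9.81% lower. Leaving out any of KO FBS replicates 2 and 3 and WT FBS replicates 1 and 2 ended that call, with adjusted p-values of 0.086 to 0.131. Stk31 (-2.24 ± 0.39) and Mael (-1.96 ± 0.53) were called lower in KO paused than in WT paused cells (adjusted p = 1.4e-07 and 0.00129 by edgeR), where 5.62% of all tested genes were called lower and 27.1% higher.

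**Figure D4:**
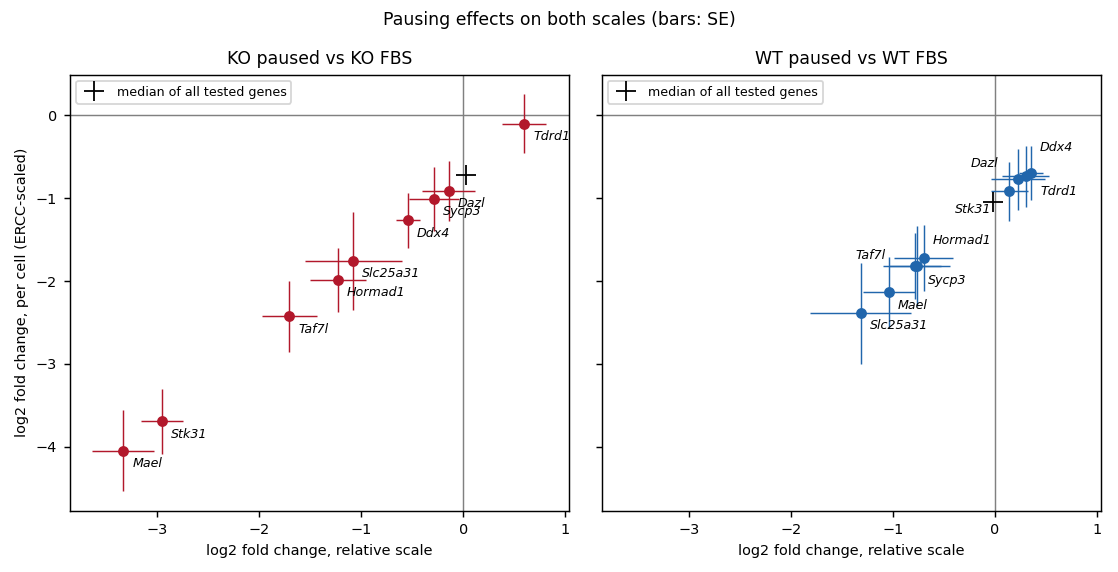
Log2 fold change of the 9 tested germline genes under pausing on the relative scale (horizontal axis) and per cell (vertical axis), for KO cells (left) and WT cells (right), with bars for the SE and a black cross for the median of all tested genes. Slc25a31 in WT cells rests on 10 counts in the paused group. Every point lies lower on the per-cell axis than on the relative axis, and Stk31 lies near Mael in KO cells but near Ddx4 in WT cells.

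The members did not move as a unit. Over the 12 samples, 26 of the 36 pairs of tested members had a positive Pearson correlation of log2 CPM, with a median of 0.32 and a range of -0.66 to 0.92. The points share groups of 3 and their depths, so the values describe this set of libraries. The highest pair was Sycp3 with Slc25a31, at 0.924, and Stk31 with Mael stood at 0.921, while Mael with Tdrd1 was the lowest. The tested genes with the patterns most like that of Stk31 were 4930558J18Rik (r = 0.987) and Sf3b1 (r = 0.978) over the 12 samples, and those most like Mael were Heatr5a (r = 0.980) and Mbnl3 (r = 0.971). For Ddx4 they were Stab2 (r = 0.955) and Kirrel (r = 0.936), for Taf7l Elf4 (r = 0.951) and Usp26 (r = 0.9499), for Hormad1 Ndufa11 (r = 0.945) and 2410003L11Rik (r = 0.944), and for Tdrd1 Zfp445 (r = 0.858) and Hyal1 (r = 0.855). Dazl was most like 1700003F12Rik (r = 0.907) and Nek4 (r = 0.901), Sycp3 most like Tsen15 (r = 0.936), and Slc25a31 most like Abcd4 (r = 0.928) and Pdxdc1 (r = 0.925).

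The genes nearest to the members that fell were read beside them. Among the 49 tested genes nearest to Stk31, within 3.49 Mb, the median log2 fold change under pausing of KO cells was 0.15, and 1 of the 49 lay lower than Stk31. Around Mael, within 4.44 Mb, the median was -0.15 and 1 of the 49 lay lower than Mael, and around Hormad1, within 0.688 Mb, the median was 0.21 and again 1 of the 49 lay lower. Around Taf7l the median was 0.03 with 4 lower, and around Ddx4 it was -0.13 with 9 lower. For the difference between both pausing effects, none of the 49 neighbours of Stk31 had a lower value. Some neighbourhoods stood off from the median of all tested genes: around Hormad1 that difference had a median of 0.40, beside 0.09 over all tested genes, and around Mael the median for KO paused over WT paused cells was -0.39, beside 0.01.

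Other genes of the germline programme were described by lists of piRNA pathway genes, meiosis genes and germ cell regulators. Under pausing of KO cells, 10 of the 20 tested piRNA pathway genes were called lower and 1 higher, or 50% and 5%, against 19.4% and 23.3% of all tested genes, with a median of -0.53. Asz1, 1 of the 20, passed the filter only because of KO FBS libraries. It had 63 counts there and 3 in KO paused cells, so its direction was fixed by the filter. Tex19.1, a protector of germ cells from transposons, fell by 2.18 ± 0.29 on the log2 scale (adjusted p = 9.35e-05 by edgeR), Mov10l1, the helicase that starts piRNA processing, by 1.69 ± 0.23 (adjusted p = 0.000108 by edgeR) and the tudor gene Tdrd12 by 1.45 ± 0.18 (adjusted p = 4.58e-05 by edgeR). The gene that rose was Pnldc1, the trimmer of piRNA ends, at 0.84 ± 0.10 (adjusted p = 3.22e-05 by edgeR). In WT cells pausing lowered 3 and raised 2 of the 20, or 15% and 10%, both below the 20.2% and 18% of all tested genes, with a median of 0.01. Piwil2, a PIWI protein, rose by 1.03 ± 0.11 (adjusted p = 3.68e-05 by edgeR) and Tdrd12 fell by 1.64 ± 0.19 (adjusted p = 6.51e-05 by edgeR). The pausing effects differed between genotypes for 7 of the 20, 6 of them lower in KO (30% of the list, against 8.26% of all tested genes), among them Piwil2 at -1.46 ± 0.15 (adjusted p = 7e-05 by edgeR), Mov10l1 at -1.95 ± 0.31 (adjusted p = 0.00145 by edgeR) and the tudor gene Rnf17 at -0.93 ± 0.12 (adjusted p = 0.000333 by edgeR).

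Of the 21 tested meiosis genes, pausing of KO cells lowered 10 and raised 2, or 47.6% and 9.52%, against 19.4% and 23.3% of all tested genes, with a median of -0.62. Stra8, the factor that starts the meiotic programme, fell by 3.13 ± 0.41 (adjusted p = 8.59e-05 by edgeR), Tex11, a meiotic recombination gene, by 3.05 ± 0.32 (adjusted p = 1.45e-05 by edgeR) and Syce1, of the synaptonemal complex, by 1.64 ± 0.13 (adjusted p = 2.26e-06 by edgeR). Hormad2, the paralogue of Hormad1, had 7 counts over the KO paused libraries and 208 over the KO FBS libraries, a ratio of scaled counts of 0.0373 (95% interval 0.0148 to 0.0783). The mismatch repair relative Msh5 (1.19 ± 0.22, adjusted p = 0.00102 by edgeR) and Hsf2bp (0.66 ± 0.11, adjusted p = 0.000486 by edgeR) rose. In WT cells 7 fell and 6 rose, or 33.3% and 28.6%, against 20.2% and 18% of all tested genes, with a median of -0.16. Stra8 fell there too (-1.98 ± 0.34, adjusted p = 0.000967 by edgeR) but Syce1 rose (0.82 ± 0.13, adjusted p = 0.00061 by edgeR), and for Syce1 the difference between both effects was -2.46 ± 0.19 (adjusted p = 1.24e-05 by edgeR). In paused cells 13 of the 21 were lower in KO than in WT and 1, Hspa2, was higher, or 61.9% and 4.76%, against 23.9% and 27.9% of all tested genes. Per cell, pausing raised none of the 21 and lowered 15 (71.4%) in KO and 13 (61.9%) in WT cells. Of all tested genes 45.7% and 68.8% were called lower. Syce1 had a mean ERCC-scaled level of 12.6 in WT paused and 14.9 in WT FBS cells.

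Of the 13 tested germ cell regulators, pausing of KO cells lowered 7 and raised 1, Nanos3 (1.38 ± 0.30, adjusted p = 0.00278 by edgeR), with a median of -0.70. These were 53.8% and 7.69% of the list, against 19.4% and 23.3% of all tested genes. Dppa3, a maternal protein that protects against loss of DNA methylation in the zygote, fell by 2.68 ± 0.31 (adjusted p = 2.84e-05 by edgeR), and Boll, a relative of Dazl, by 2.40 ± 0.29 (adjusted p = 4.86e-05 by edgeR). In WT cells 4 fell and 4 rose, 30.8% each way, against 20.2% and 18% of all tested genes. Prdm14, which counters DNA methylation in stem cells, rose by 1.23 ± 0.14 in WT paused cells (adjusted p = 5.95e-05 by edgeR), and its pausing effect was lower in KO by 1.20 on the log2 scale (-1.20 ± 0.20, adjusted p = 0.00161 by edgeR). Per cell, pausing raised none of the 13 and lowered 7 (53.8%) in KO and 9 (69.2%) in WT cells. Of all tested genes 45.7% and 68.8% were called lower.

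Genes known to hold germline promoters silent were called in both directions on the relative scale. Of the 14 subunits and partners of PRC1.6, 4 were called lower and 2 higher in KO paused than in KO FBS cells, or 28.6% and 14.3%, near the 19.4% and 23.3% of all tested genes, with a median of -0.16. In WT paused cells 7 were lower and none higher than in WT FBS cells, or 50% lower against 20.2% of all tested genes, with a median of -0.26. Pcgf6, the subunit that defines the complex, fell by 0.55 ± 0.10 in WT cells (adjusted p = 0.00126 by edgeR), and the E-box-binding partner Max by 0.36 ± 0.08 (adjusted p = 0.00396 by edgeR). E2f6 rose by 0.31 ± 0.09 in KO cells (adjusted p = 0.0164 by edgeR). For 1 of the 14, Yaf2, the pausing effect differed between genotypes (1.00 ± 0.20, adjusted p = 0.00495 by edgeR). Per cell, pausing raised none of the 14 and lowered 10 (71.4%) in KO and all 14 in WT cells. Of all tested genes 45.7% and 68.8% were called lower. No difference between the pausing effects was called per cell for this list.

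Of the 10 tested genes of the DNA methylation machinery, pausing raised 2 (20%) and lowered 1 (10%) in KO cells, against 23.3% and 19.4% of all tested genes. In WT cells it raised 5 (50%) and lowered 2 (20%), against 18% and 20.2%. Relative to the typical gene, Tet1 and Tet3, enzymes that oxidise methylcytosine, rose under pausing in both genotypes, Tet1 by 0.60 ± 0.09 in KO (adjusted p = 0.000151 by edgeR) and 0.74 ± 0.09 in WT cells (adjusted p = 7.68e-05 by edgeR), and Tet3 by 1.52 ± 0.12 in KO (adjusted p = 1.76e-06 by edgeR) and 0.79 ± 0.12 in WT cells (adjusted p = 0.000501 by edgeR). The de novo methyltransferase Dnmt3b fell in both, by 1.02 ± 0.25 in KO (adjusted p = 0.00556 by edgeR) and 1.32 ± 0.25 in WT cells (adjusted p = 0.0019 by edgeR). Its cofactor Dnmt3l rose by 1.54 ± 0.19 in WT cells (adjusted p = 0.000125 by edgeR), and its pausing effect was lower in KO (-1.09 ± 0.27, adjusted p = 0.0145 by edgeR). Tet2 was lower in KO paused than in WT paused cells, at -2.41 ± 0.16 (adjusted p = 2.02e-07 by edgeR). Its mean was also lower in KO in FBS medium, at 146 CPM in KO FBS and 341 CPM in WT FBS cells. The paused means were 117 CPM in KO and 619 CPM in WT cells. Per cell, pausing raised 1 (10%) and lowered 6 (60%) of the 10 in KO cells, against 2.45% and 45.7% of all tested genes. In WT cells it raised none and lowered 5 (50%) per cell, against 1.15% and 68.8% of all tested genes. Mean ERCC-scaled Tet1 was 1211 in KO paused and 1348 in KO FBS cells, and 1364 in WT paused and 1683 in WT FBS cells. Tet3 stood at 137 in KO paused and 80.3 in KO FBS cells, and at 37.3 in WT paused and 44.7 in WT FBS cells. These are transcript levels, and their relation to the germline genes was not tested.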

How the data were processed

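The authors deposited raw read counts per gene symbol and ERCC spike-in, and log2 values for 14495 genes that equal the log2 of the count plus 0.5 plus a constant per sample (SD at most 5.1e-10), checked on 6572 genes. The deposited log2 values were used for that check only, and they list 8 of the 10 genes. Tools named in the submitters' processing notes are Trim Galore 0.4.0, featureCounts, Subread 1.5.0 and edgeR 3.32.1, with build mm10. The aligner, the annotation and whether counting used strand are not stated in those notes or the labels.

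Tests ran on the deposited counts in edgeR 4.0.16 (R 4.3.3): robust quasi-likelihood, 4 group means over 12 samples, Benjamini-Hochberg adjustment over 15281 genes, threshold 0.05, default filter (minimum count 10, minimum total 15). Library size was the gene total times a TMM factor over genes (relative; CPM use it), or the ERCC total times a TMM factor over 92 ERCC rows (per cell). SE is the fold change divided by the square root of F. On the per-cell scale the fit shared the spread among genes, so the members' intervals there are those of a normal distribution. On the relative scale the gene's own spread between libraries also counted. A gene with 10 or fewer counts in a group is given as a ratio with an exact 95% interval, for counting error only. The steps were tested on simulated counts.

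The members, lists and tests were chosen with earlier results of these data known. All 10 members and Mettl3 are named always. Of the other lists, up to 4 genes with the lowest p and those called against the median could be named, and the text prints some of these. For each tested member the 2 most correlated genes (prior count 2) and the 49 nearest tested genes were taken, and Slc25a31 is itself the second for Sycp3. Positions are from GENCODE vM21, which matched 23383 of 24421 gene rows by symbol, and promoters are from RefSeq, where all 10 members matched. Alternatives were median-of-ratios scaling, DESeq2 1.42.0, non-robust dispersions, no filter, ERCC totals without TMM, a replicate block, and each library left out. Replicates were not paired in the main tests. The rule set for pairing asked that all 18 same-number correlations exceed 0.1, and 10 did. Same-numbered libraries were still more alike than others, with a median correlation of 0.125 beside -0.081. Results with a replicate block are given below.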

Additional observations from a re-analysis of the deposited data

Results flagged for a closer look

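Tests of the difference between both pausing effects passed for 3 germline genes relative to the typical gene. The pausing effect in KO cells minus that in WT cells was -3.10 for Stk31, -2.29 for Mael and -0.89 for Ddx4 on the log2 scale. Per cell it passed for Stk31, at -2.78. Each is a tested difference between genotypes under the same treatment, by edgeR's quasi-likelihood test across all genes.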

How the results depend on the processing

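The labels do not say that a replicate number marks a shared culture. With a replicate block the relative counts of called members were 4, 6, 4, 2 and 3 for pausing in WT, pausing in KO, KO against WT in FBS, KO against WT paused and the difference of pausing effects, against 3, 6, 4, 2 and 3 without it. Per cell the block gave 2 members for KO against WT in FBS, and for the difference of pausing effects 2 members (Stk31 and Mael) and 1970 genes, against 1, 1 and 718. Without a filter on low counts KO against WT in FBS had 2 members per cell. By deviations from the group means, 8 of the 12 libraries correlated best with the libraries of their own number.

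Leaving out 1 library in turn, called members ranged over 1 to 4 (WT pausing), 5 to 8 (KO pausing), 2 to 5 (KO against WT in FBS), 2 to 3 (KO against WT paused) and 3 to 3 (difference) on the relative scale, and over 5 to 9, 5 to 9, 0 to 3, 2 to 2 and 1 to 2 per cell. Called genes ranged over 4171 to 9219 for WT pausing and 1819 to 6463 for the difference on the relative scale, the highest in both cases without WT FBS replicate 1, and over 4112 to 10459 for KO pausing and 397 to 1718 for the difference per cell. The falls of Stk31, Mael, Taf7l, Hormad1 and Ddx4 in paused KO cells, and the differences for Stk31, Mael and Ddx4, were called without any single library on the relative scale.

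None of the members that changed sign was called. In KO FBS against WT FBS cells (relative) Tdrd1 and Hormad1 stood at 0.016 and 0.025 with median-of-ratios scaling, 0.014 and 0.032 with DESeq2, and 0.00115 and 0.026 with the replicate block. Without 1 library the log2 fold changes ranged, on the relative scale, over -0.042 to 0.46 (Dazl), -0.086 to 0.30 (Stk31) and -0.012 to 0.47 (Tdrd1) for WT pausing, -0.33 to 0.073 (Dazl), -0.15 to 0.16 (Tdrd1) and -0.19 to 0.21 (Hormad1) for KO against WT in FBS, -0.40 to 0.19 (Taf7l) and -0.18 to 0.044 (Ddx4) for KO against WT paused, and -0.075 to 0.60 (Slc25a31) for the difference. Per cell they ranged over -0.22 to 0.083 (Tdrd1) for KO pausing, -0.32 to 0.12 (Mael), -0.34 to 0.31 (Dazl), -0.14 to 0.34 (Tdrd1) and -0.12 to 0.46 (Hormad1) for KO against WT in FBS, -0.29 to 0.065 (Hormad1), -0.44 to 0.40 (Slc25a31), -0.27 to 0.32 (Sycp3), -0.028 to 0.51 (Taf7l) and -0.44 to 0.11 (Dazl) for KO against WT paused, and -0.45 to 0.20 (Dazl) for the difference. The cause was not tested. Levels under 1 CPM rest on few counts, which limits Mael, Taf7l, Slc25a31 and Tex101, and Stk31 in KO paused cells.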
